A study of Sus scrofa with 6 samples.

Results

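The glucocorticoid receptor, its activating enzyme and a set of its best-known target genes were followed in pig subcutaneous fat. The set was defined as 10 gene symbols, and a row was taken where its Ensembl identifier carries one of these symbols: NR3C1, HSD11B1, FKBP5, TSC22D3, ZBTB16, SGK1, ERRFI1, KLF9, DUSP1 and CEBPD. Of the 10, 9 were matched to 1 row each among the 22844 rows of the tables. TSC22D3, the glucocorticoid-induced leucine zipper, was not matched and was not analysed here. All 9 matched genes passed the filter on low values.

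Subcutaneous fat came from Duroc × Landrace × Yorkshire hybrid pigs, with 3 libraries from a control diet and 3 from a diet carrying 400 mg/kg resveratrol, a plant polyphenol. Total RNA was sequenced, and each gene has a read count and a TPM value, which is an abundance per transcript length scaled to the same total in every library. Whether the libraries of 1 diet are from different animals is not stated in the labels. P-values therefore describe only how these libraries vary, and that spread may be technical. The labels used here name no age, sex, fasting state, time of sampling or hormone level. In such bulk tissue, fewer cells of a type and less RNA per cell cannot be told apart.

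Cortisol, the main glucocorticoid of the pig, enters cells and binds the glucocorticoid receptor, which waits in the cytoplasm in a complex with heat shock protein chaperones. The bound receptor moves to the nucleus, attaches to DNA and switches a set of genes on while holding back many inflammatory genes. In fat the hormone acts on adipocyte differentiation, lipid turnover and the response to insulin, and the tissue also makes active cortisol locally from inert cortisone through the enzyme encoded by HSD11B1. The targets followed here include brakes on the hormone itself, on growth factor receptors and on stress kinases, and several transcription factors.

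The shallowest library, control 2, had 16251536 reads and the deepest, resveratrol 2, had 37943877. A gene of the set had between 240 and 16791 reads in a library. Adipocyte genes were abundant everywhere. ADIPOQ, the adipokine adiponectin, ran from 3614 to 4042 TPM in control and from 4437 to 4683 TPM in resveratrol, without overlap, and PLIN1, the coat protein of lipid droplets, from 889 to 1028 TPM over the 6 libraries. Of 9 adipocyte genes tested, 8 had a log2 fold change above 0 (median 0.19). LEP, named after its values were seen, was the 1 below 0, at -0.67 (SE 0.35). At an unadjusted p under 0.05 in edgeR 1 was higher, GPD1, an enzyme of triglyceride synthesis, against 2.21% of all tested rows. That higher count was 0 without control 2, resveratrol 2 or resveratrol 3, and 4 without control 3. Over all tested rows it was 329, and 381, 277, 181 and 640 in these settings in turn. Every resveratrol library lay above every control library on TPM for 2 of the 9, ADIPOQ among them, against 4.11% of all tested rows. Summed TPM was at most 1.82 over the 4 measured genes of skeletal muscle and 6.17 to 10.3 over the 6 of skin epithelium, most of it from DSP, a desmosome protein, while the keratin KRT1 had 0 reads in every library. Control 1 stood apart in tendon and cartilage genes, whose summed level over 10 genes was 371 TPM there, 31.3 and 75.8 TPM in control 2 and 3, and 17.7 to 29.6 TPM in resveratrol.

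Each gene was asked whether its level differed between the diets. None of the 9 did so at an adjusted p under 0.05 in edgeR's quasi-likelihood test, with p-values adjusted by Benjamini-Hochberg over 14908 rows, and none did in DESeq2. Over all tested rows the same threshold was passed by 0 (0%) in edgeR and by 40 (0.268%) in DESeq2. At an unadjusted p under 0.05, 1 of the 9 was lower in resveratrol, the growth factor receptor inhibitor ERRFI1, against 4.32% of all tested rows in that direction. None was higher, against 2.21%. The fitted log2 fold change (resveratrol against control) was below 0 for 7 of the 9 genes, against 51.2% of all tested rows, and these 7 were the 7 measured targets. The median over the 9 genes was -0.21, beside -0.0075 over all tested rows. It was -0.04 without control 3.

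**Figure D1:**
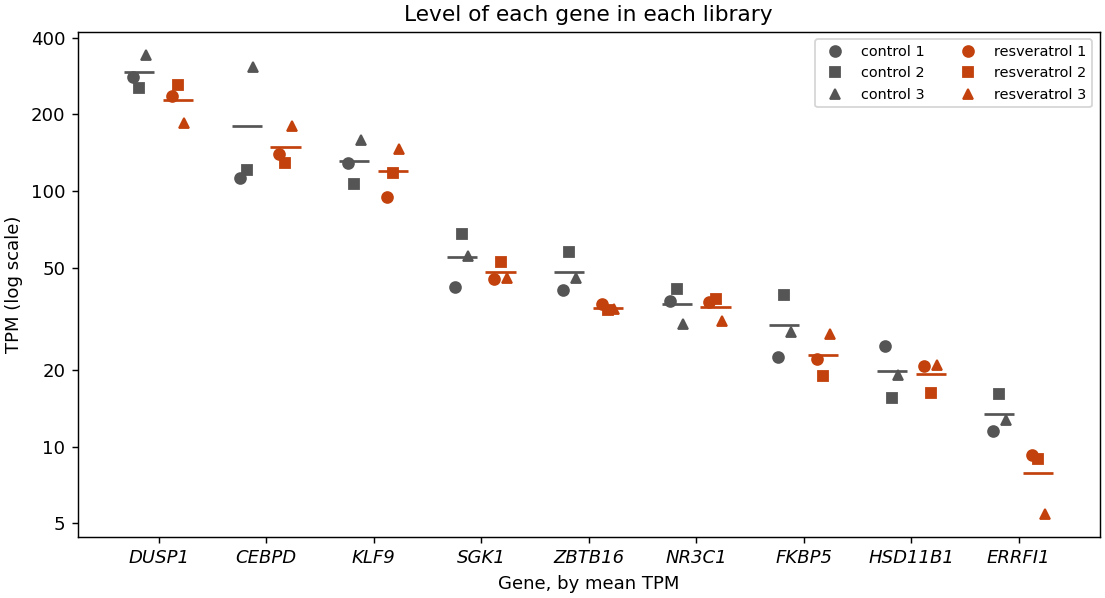
TPM of the 9 genes in each library on a log scale, ordered by mean level, with a marker for each library and a bar for the mean of each diet. ZBTB16 and ERRFI1 have all 3 resveratrol libraries below all 3 control libraries, and CEBPD stands at 306 TPM in control 3 alone.

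NR3C1 (ENSSSCG00000014401.4) encodes the glucocorticoid receptor. It measured 37.1, 41.3 and 30.3 TPM in control libraries 1, 2 and 3, against 36.7, 37.8 and 31.2 TPM in resveratrol libraries 1, 2 and 3. The groups overlapped throughout, and the third library of each diet was the lowest of its group. The control mean was 36.3 ± 5.53 TPM and the resveratrol mean 35.2 ± 3.57 TPM (SD, n = 3 in each diet, as for all means below). The fold change was 1.04 with a 95% interval from 0.813 to 1.33 (log2 fold change 0.06, SE 0.16, edgeR adjusted p = 0.948). The log2 fold change was negative on the TPM scale, at -0.03 in limma on log2(TPM + 0.5), where the median of all tested rows was -0.079.

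NR3C1 was more abundant in this fat than NR3C2 and PGR, steroid receptors of its family. Its TPM was 7.40 to 11.1 times that of NR3C2, the mineralocorticoid receptor, which also binds cortisol with high affinity. The ratio was 23.6 to 45.7 to PGR, the progesterone receptor. These are ratios of per-length levels within each of the 6 libraries. For NR3C2 the control mean was 4.44 ± 0.989 TPM and the resveratrol mean 3.91 ± 0.707 TPM (log2 fold change -0.08, SE 0.18).

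HSD11B1 (ENSSSCG00000015616.3) encodes the enzyme that regenerates active cortisol inside fat cells. Levels were 24.8, 15.5 and 19.1 TPM in control libraries 1, 2 and 3, against 20.6, 16.2 and 20.8 TPM in resveratrol libraries 1, 2 and 3. Control 1 was the highest library and control 2 the lowest, so the control group enclosed the resveratrol group. Means were 19.8 ± 4.69 and 19.2 ± 2.62 TPM, and the fold change was 1.03 with a 95% interval from 0.679 to 1.56 (edgeR adjusted p = 0.978). Its log2 fold change was 0.33 without control 1 and -0.21 without control 2. Control 2 also had the fewest reads of the gene, 240, and fewer reads for each unit of TPM. Relative to the library median that ratio was 0.549 in control 2 and 0.606 to 0.628 in the other 5 libraries, so the length behind the TPM value differed there. For the other 8 genes the ratio varied by at most 1.03 times between libraries.

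The partner and the opponent of HSD11B1 were both measured. H6PD supplies its cofactor in the endoplasmic reticulum and was present at 9.13 to 15.5 TPM, with a log2 fold change of -0.06. HSD11B2 inactivates cortisol in kidney and other mineralocorticoid tissues. It had 2 to 21 reads per library and at most 0.382 TPM, and did not pass the filter on low values. The TPM of HSD11B1 was 54.1 to 209.9 times that of HSD11B2, a ratio whose lower term rests on few reads.

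FKBP5 (ENSSSCG00000001549.3) encodes a co-chaperone that lowers the receptor's affinity for hormone and is itself induced by it. It was found at 22.4, 39.2 and 28.1 TPM in control libraries 1, 2 and 3, against 22.1, 18.9 and 27.6 TPM in resveratrol libraries 1, 2 and 3. The highest library was control 2 and the lowest resveratrol 2, and the groups overlapped because control 1 was low and resveratrol 3 high. Means were 29.9 ± 8.51 and 22.8 ± 4.39 TPM. The log2 fold change was -0.27 (SE 0.21, edgeR adjusted p = 0.767), with a fold of 0.830 and a 95% interval from 0.599 to 1.15. It was -0.47 without resveratrol 3 and -0.13 without resveratrol 2.

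ZBTB16 (ENSSSCG00000030095.2), a zinc finger transcription factor strongly induced by glucocorticoid in many cell types, gave 41.1, 57.8 and 45.7 TPM in control 1, 2 and 3. In resveratrol 1, 2 and 3 it gave 36.1, 34.3 and 34.6 TPM. Every resveratrol library lay below every control library, as in 8.15% of all tested rows on TPM. The opposite, every resveratrol library above every control library, was met by none of the 9 genes and by 4.11% of all tested rows. The resveratrol libraries were close together, with a mean of 35.0 ± 0.975 TPM beside 48.2 ± 8.64 TPM in control. The fold was 0.788 with a 95% interval from 0.621 to 1.0005 (log2 fold change -0.34, SE 0.16, edgeR unadjusted p = 0.0504, adjusted p = 0.733). In DESeq2 the unadjusted p was 0.0319 and the adjusted p 0.626.

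ERRFI1 (ENSSSCG00000035774.1) encodes an inhibitor of the epidermal growth factor receptor and was the least abundant gene of the set. Its levels were 11.5, 16.1 and 12.7 TPM in control libraries 1, 2 and 3, against 9.23, 8.91 and 5.45 TPM in resveratrol libraries 1, 2 and 3. Again no resveratrol library reached a control library, and resveratrol 3 was the lowest. Means were 13.4 ± 2.41 and 7.86 ± 2.09 TPM. The fold was 0.618 with a 95% interval from 0.458 to 0.834 (log2 fold change -0.69, SE 0.19). Its edgeR unadjusted p of 0.00490 ranked 83 among 14908 rows, and the adjusted p was 0.733. With resveratrol 3 left out the log2 fold change was -0.51. Over 20 alternative fits the log2 fold change ran from -0.82 to -0.51, the unadjusted p stayed under 0.05 in all 20 and the adjusted p under 0.05 in none, the lowest being 0.231 in DESeq2.

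**Figure D2:**
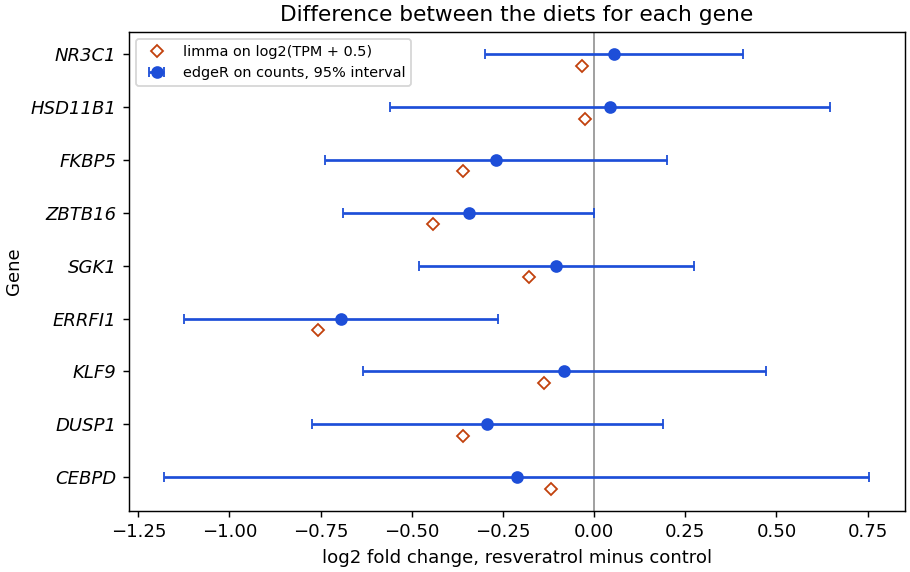
Log2 fold change of each gene, resveratrol minus control, with its 95% interval in edgeR (circles) and the value from limma on log2(TPM + 0.5) (diamonds). The interval lies below 0 for ERRFI1, ends at about 0 for ZBTB16 and includes 0 for the other 7 genes. The diamonds lie to the left of the circles for every gene except CEBPD.

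DUSP1 (ENSSSCG00000016991.4) encodes the phosphatase that switches off the stress kinases p38 and JNK, and was the most abundant gene of the set. It reached 279.9, 255 and 341 TPM in control libraries 1, 2 and 3, against 237, 262 and 186 TPM in resveratrol libraries 1, 2 and 3. The groups overlapped only through control 2 and resveratrol 2. Means were 292 ± 44.4 and 228 ± 38.7 TPM, with a log2 fold change of -0.29 (SE 0.22, edgeR adjusted p = 0.757). DUSP1 is also an immediate early gene, induced within minutes by many stimuli other than cortisol. Its log2 fold change was -0.46 without control 2 (edgeR unadjusted p = 0.0316) and -0.11 without control 3.

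SGK1 (ENSSSCG00000021443.2) encodes a kinase that both the glucocorticoid and the mineralocorticoid receptor induce. The values were 42.0, 68.2 and 56.0 TPM in control libraries 1, 2 and 3, against 45.5, 53.0 and 45.9 TPM in resveratrol libraries 1, 2 and 3. All resveratrol libraries lay inside the control range. Means were 55.4 ± 13.1 and 48.1 ± 4.21 TPM, and the fold was 0.931 with a 95% interval from 0.717 to 1.21 (edgeR adjusted p = 0.897). The log2 fold change was -0.10 on all libraries, -0.23 without control 1 and -0.04 without control 3.

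KLF9 (ENSSSCG00000021646.2) encodes a transcription factor induced by glucocorticoid and thyroid hormone. In control 1, 2 and 3 it stood at 129, 107 and 158 TPM, and in resveratrol 1, 2 and 3 at 94.99, 118 and 147 TPM. The third library was the highest in each diet, and the groups overlapped. Means were 132 ± 25.7 and 119.8 ± 25.9 TPM, with a log2 fold change of -0.08 (SE 0.25, edgeR adjusted p = 0.952). The sign changed without control 3 (0.12) and without resveratrol 1 (0.08).

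CEBPD (ENSSSCG00000032367.1), a transcription factor of early adipocyte differentiation and of acute inflammation, varied most between libraries of 1 diet. It measured 112, 121 and 306 TPM in control libraries 1, 2 and 3, against 139.7, 128 and 181 TPM in resveratrol libraries 1, 2 and 3. Every resveratrol library was above control 1 and 2 and below control 3. Means were 179.7 ± 109 and 149.6 ± 27.5 TPM, with a log2 fold change of -0.21 (SE 0.42, edgeR adjusted p = 0.920). Without control 3 the log2 fold change was 0.49, so that 1 library set its direction.

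**Figure D3:**
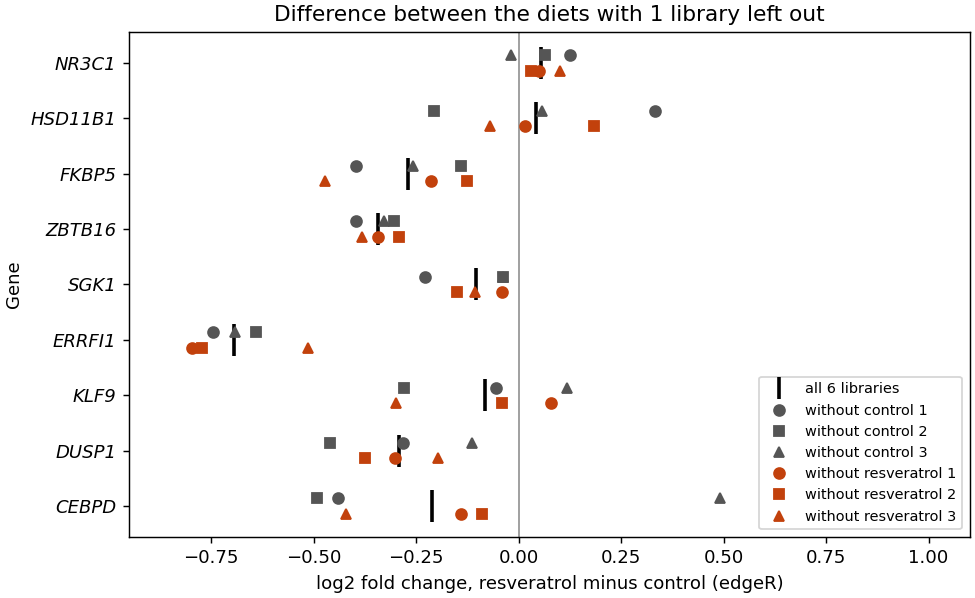
Log2 fold change of each gene with all 6 libraries (black bar) and with each library left out in turn (a marker for each library). ERRFI1, ZBTB16, FKBP5, SGK1 and DUSP1 stay below 0 throughout, whereas CEBPD moves to 0.49 without control 3 and NR3C1, HSD11B1 and KLF9 cross 0.

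Ordered by mean TPM over the 6 libraries, the set ran DUSP1 (260.0), CEBPD (165), KLF9 (126), SGK1 (51.8), ZBTB16 (41.6), NR3C1 (35.7), FKBP5 (26.4), HSD11B1 (19.5) and ERRFI1 (10.6). Only between KLF9 and SGK1 did the ranges of neighbours not overlap. Within libraries, DUSP1 exceeded CEBPD, SGK1 exceeded ZBTB16 and NR3C1 exceeded FKBP5 in 6 of 6. ZBTB16 exceeded NR3C1 in 4 of 6. The receptor's transcript was thus less abundant per length, by mean TPM, than those of 5 of its 7 measured targets.

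The genes did not share 1 pattern over the libraries. Profiles were compared as the root mean square difference between log2 CPM values, each centred on the gene's own mean (CPM is the read count relative to the TMM-scaled library total, with a prior count of 2). Over the 36 pairs the median difference was 0.39. The closest pairs were FKBP5 with ZBTB16 (0.18) and ZBTB16 with SGK1 (0.18), and the farthest was ERRFI1 with CEBPD (0.73). The mean profile of the 7 measured targets deviated by -0.02, 0.0025 and 0.41 in control 1, 2 and 3 and by -0.18, -0.17 and -0.03 in resveratrol 1, 2 and 3. Control 3 was thus the highest, where CEBPD alone deviated by 1.04. Within a diet the log2 SD was larger in control than in resveratrol for 6 of the 9 genes, and for CEBPD it was 0.89 against 0.33. The same share was not computed over all tested rows, so the count shows nothing particular to these genes.

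**Figure D4:**
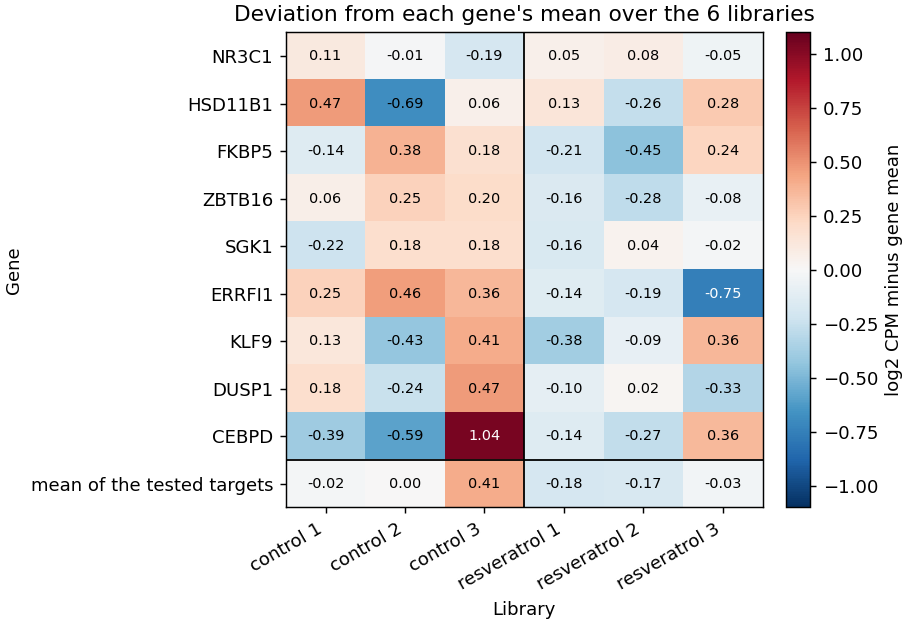
Log2 CPM of each gene in each library minus the gene's mean over the 6 libraries, with the mean of the 7 measured targets in the last line. Red is above and blue below the gene's mean. CEBPD in control 3 (1.04) and ERRFI1 in resveratrol 3 (-0.75) are the largest deviations.

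Among 7671 other genes with a symbol and a mean of at least 5 TPM, those with profiles closest to NR3C1 included ERI3, NAT9, DDX19B and DDB2, at root mean square differences of 0.04 to 0.05. The median over these genes was 0.23. NR3C1 varied little over the 6 libraries, so a small difference is easily reached. Closest to the mean of the measured targets were CITED2, PECAM1, LETM1, WDR20 and SLC20A2, at 0.06 to 0.07 against a median of 0.29. All of them were highest in control 3, at 0.30 to 0.50 above their own mean. The targets' mean was also highest there, at 0.41, with CEBPD at 1.04. PECAM1 is a marker of blood endothelium. Its log2 fold change was -0.22 (SE 0.18). The summed TPM of 8 endothelial genes was 281 to 373 in control and 258 to 286 in resveratrol. PECAM1 itself supplied 115 to 163 TPM of that sum. Of the 8 genes, 6 lay below 0 and 2 above, TEK (0.40, SE 0.18) and KDR (0.26, SE 0.18). For no endothelial marker did edgeR's unadjusted p fall below 0.05. On TPM, all resveratrol libraries lay below all control libraries for 3 of the 8, against 8.15% of all tested rows. The opposite was met by 0 of the 8, against 4.11%. The part of endothelial RNA in the targets' values was not tested.

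The chaperones that hold the receptor ready for hormone were measured with 11 of 12 genes. None had an unadjusted p under 0.05 in edgeR, and the median log2 fold change was 0.12, with 8 above 0. HSPA8, the constitutive heat shock protein that loads the receptor, had a control mean of 178 ± 50.5 TPM and a resveratrol mean of 215 ± 22.8 TPM (log2 fold change 0.39, SE 0.21). HSP90AA1, the inducible form of the chaperone that binds the receptor, averaged 107 ± 31.7 against 81.7 ± 6.20 TPM (-0.27, SE 0.20). DNAJB1 and STIP1, co-chaperones of the same cycle, differed by a log2 fold change of 0.43 (SE 0.28) and 0.22 (SE 0.18). Control 1 was the lowest library for all 4 of these genes, and the list's median was -0.0054 without it.

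Coregulators carry the receptor's signal to chromatin, and all 15 listed were tested. At an unadjusted p under 0.05, 3 were lower and 0 higher, against 4.32% and 2.21% of all tested rows, and 0 passed the adjusted threshold in edgeR or DESeq2. The median log2 fold change was -0.24. CREBBP and EP300, the paired histone acetyltransferases, had control means of 10.02 ± 1.60 and 9.95 ± 3.05 TPM and resveratrol means of 6.66 ± 1.21 and 6.58 ± 0.998 TPM. Their log2 fold changes were -0.49 (SE 0.16) and -0.48 (SE 0.19). For the corepressor NCOR1 the value was -0.38 (SE 0.17). No resveratrol library reached a control library on TPM for 5 of the 15, CREBBP and EP300 among them, against 8.15% of all tested rows. The 3 lower genes, CREBBP and EP300 among them, became 0 without resveratrol 1, 0 without resveratrol 3 and 6 without control 3, and 1 with library totals in place of TMM. Over all tested rows the lower count moved too, from 644 to 332, 222, 1041 and 339 in these settings in turn. The list's median log2 fold change in them was -0.24, -0.25, -0.30 and -0.19. Over all tested rows the median was -0.0074, -0.014, -0.0096 and 0.057.

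Beyond the set, 41 further genes that glucocorticoid is known to induce were tested, of 48 listed. At an unadjusted p under 0.05 in edgeR, 5 were lower and 1 higher (4.32% and 2.21% of all tested rows), and 0 passed the adjusted threshold. The median log2 fold change was -0.09, with 24 of 41 below 0. On TPM, all resveratrol libraries lay below all control libraries for 8 of the 41, against 8.15% of all tested rows. The opposite was met by 1, against 4.11%. PER1 and PER2, clock repressors that glucocorticoid induces directly, showed the smallest p-values, with log2 fold changes at -0.79 (SE 0.18) and -1.34 (SE 0.29). DESeq2 called both (adjusted p = 0.0159 and 0.00922) and none of the other 39. AQP1, a water channel of endothelium, had a control mean of 88.1 ± 16.1 TPM and a resveratrol mean of 50.1 ± 12.2 TPM. ARRDC2, an arrestin-like protein, averaged 31.9 ± 2.06 against 20.7 ± 4.87 TPM. CRISPLD2 (-0.91) and TRIM63 (0.77), named after their values were seen, complete the 6. The 5 lower genes were 9 without control 2 and 3 without resveratrol 3. Over all tested rows the lower count was 644, and 849 and 222 in these settings.

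**Figure D5:**
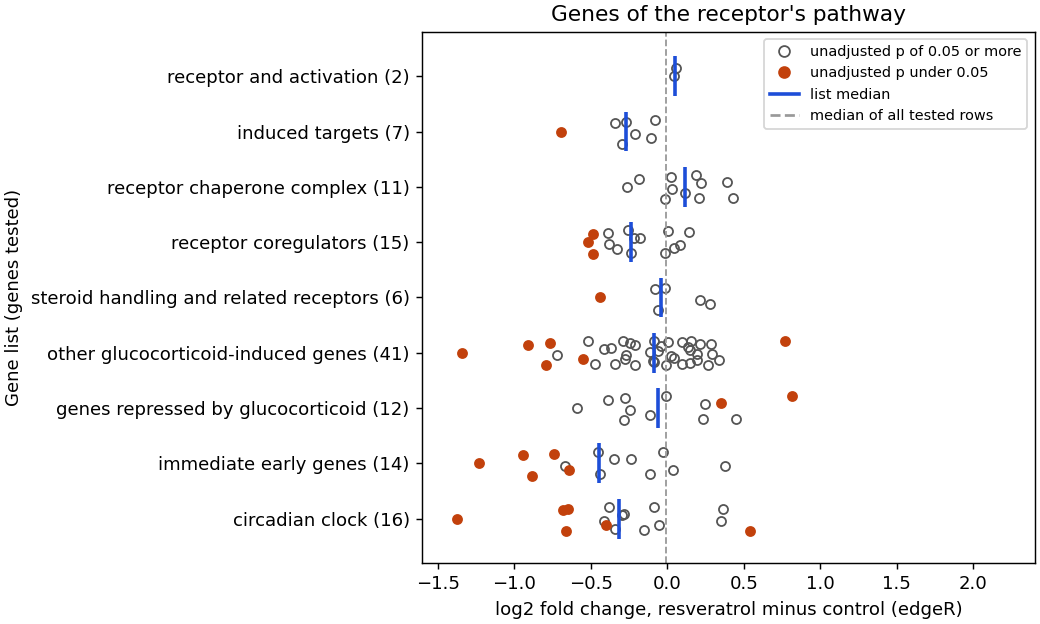
Log2 fold change in edgeR of every tested gene, by list, with the list's median (blue bar) and the median of all tested rows (dashed line). Filled points have an unadjusted p under 0.05. Lists of cell type markers are not drawn. Among the lists drawn, the immediate early and clock genes have the lowest medians, -0.45 and -0.32, and none of the plotted genes passed the adjusted threshold in edgeR.

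Genes that glucocorticoid represses were tested with 12 of 17 listed. None was lower and 2 were higher at an unadjusted p under 0.05 in edgeR (4.32% and 2.21% of all tested rows), with 0 past the adjusted threshold in edgeR and DESeq2. These were IL1A, an inflammatory cytokine, and VCAM1, an adhesion molecule for leukocytes. The resveratrol mean of IL1A was 3.64 ± 0.709 TPM, beside 2.30 ± 1.41 TPM in control (log2 fold change 0.82, SE 0.36). For VCAM1 the control mean was 41.2 ± 6.07 TPM, and the resveratrol libraries averaged 49.0 ± 2.35 TPM. IL6 lay the other way, at 5.73 ± 1.16 TPM in control and 3.72 ± 0.637 TPM in resveratrol (-0.59, SE 0.28), and ICAM1 had a log2 fold change of -0.38 (SE 0.20). Every resveratrol library lay below every control library on TPM for 2 of the 12, IL6 among them, against 8.15% of all tested rows. The 2 higher genes, IL1A and VCAM1, became 0 without control 1 or any 1 resveratrol library and 1 without control 3. Over all tested rows the higher count was 329. It was 433 and 640 without control 1 and 3, and 224, 277 and 181 without resveratrol 1, 2 and 3. The list's median was -0.06 and changed sign with the library left out, from -0.27 without resveratrol 1 to 0.15 without resveratrol 2.

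Other gene groups were compared between the same libraries, none with a gene past the adjusted threshold in edgeR. The shares of all tested rows at an unadjusted p under 0.05 were 4.32% lower and 2.21% higher, as above, or 644 and 329 rows. With a library left out, the lower rows were 627, 849 and 1041 without control 1, 2 and 3. They were 332, 634 and 222 without resveratrol 1, 2 and 3, and the higher rows 224 without resveratrol 1. Tendon and cartilage genes had the lowest median log2 fold change of all the lists, -3.38, with 9 of 9 tested genes below 0 and 6 lower at an unadjusted p under 0.05. Without control 1 the median was -1.65 and the count again 6. The count was 9 without control 2, where 1 of these genes passed the adjusted threshold in edgeR, and 3 without control 3. It was 1, 2 and 3 without resveratrol 1, 2 and 3. On all 6 libraries DESeq2 called 2 of the tendon and cartilage genes, COL2A1, the collagen of cartilage, and CHAD, a cartilage matrix protein (adjusted p = 0.00154 and 0.0400). COL2A1, named after its values were seen like CHAD and GPD1, stood at 5.08 to 11.8 TPM in control and at 0.936 to 1.08 TPM in resveratrol. Macrophage genes had a summed level over 10 genes of 415 to 496 TPM in control and 525 to 771 TPM in resveratrol, and 5 of 10 were higher at that threshold, 2 without resveratrol 1, with none called in DESeq2. Immediate early genes had a median log2 fold change of -0.45, with 5 of 14 lower at that threshold, NR4A1 (-1.23), MYC (-0.74), EGR1 (-0.64) and NR4A2 (-0.94) first. That count was 3 without control 1, 2 without control 2 and 2 without resveratrol 3, and the median was -0.12 without control 1. The median of 16 clock genes was -0.32, and 5 were lower at that threshold, including NR1D1 (-1.37), CRY2 (-0.65) and BHLHE40 (-0.68), and 1 higher, NFIL3 (0.54). DESeq2 called 1 gene in each of these lists, NR4A1 and NR1D1. PER1 and PER2, also clock genes, were counted with the induced genes above and are not in the clock list. DUSP1 belongs with the immediate early genes and KLF9 is also driven by the clock. The part of cell composition, of the state of the tissue at sampling and of the clock in the values of the receptor's targets was not tested.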

How the data were processed

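Per the file headers, the authors deposited 1 table per library with whole-number read counts and TPM for each row, and 1 table of TPM for the whole series, which held the same TPM values for 14777 rows. The tools and builds named, per the submitters' processing notes, are Bowtie 0.12.2, mm8 and mm9, the last pair being mouse builds. For the pig identifiers, the build, annotation, counting program and strand handling were not given in the sources used here, so no coordinates are printed, and reads of overlapping genes cannot be assigned with certainty. Identifiers were matched to symbols for 14750 of 22844 rows.

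The fit used 14908 rows, those whose mean TPM reached 0.5. Counts were scaled by TMM and tested with edgeR 4.0.16 (robust quasi-likelihood, R 4.3.3) on all 6 libraries, with adjustment by Benjamini-Hochberg over every tested row and calls at 0.05. SE is the log2 fold change divided by the square root of F. Levels are deposited TPM as mean ± SD, and TPM is not TMM-scaled. DESeq2 1.42.0, limma 3.58.1 on log2 TPM, other scalings and filters, a replicate block and leaving out each library were alternatives. Scripts were tested on simulated data.

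The genes and lists were chosen with earlier results of these data known, so lists are described by counts and medians without a set test. Named are all genes of the set, the 4 genes of each pathway list with the smallest unadjusted p, the first 2 genes of marker lists where they were measured and bear on a result, and the 5 genes nearest in profile. Some genes that this rule names are not reported here.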

Additional observations from a re-analysis of the deposited data

How the results depend on the processing

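None of the 9 genes passed the adjusted threshold under any of 20 alternatives. The count of all rows called was 0 in edgeR, 40 in DESeq2 and 0 to 5 with a library left out (5 without control 2). Rows with an unadjusted p under 0.05 were 973, and 403 (without resveratrol 3) to 1681 (without control 3) with a library left out. The count of genes of the set lower at that threshold was 1, and 2 in DESeq2, with DESeq2 size factors, with a mean of at least 1 TPM, in limma with pseudocounts of 0.5, 1 and 0.1 and without the top 20 and mitochondrial rows. It was 1 to 2 with a library left out. The set's median log2 fold change of -0.21 was -0.11 with library totals alone. The median of all tested rows was 0.057 in that setting, beside -0.0075 with TMM. With a library left out the set's median ran from -0.30 (without resveratrol 3) to -0.037 (without control 3). The coregulator count of 3 was 1 with library totals alone, 5 with a mean of at least 1 TPM and 0 to 6 with a library left out. The induced genes' count of 5 lower was 3 to 9 with a library left out, and that of 1 higher was 0 to 2. With a library left out, medians ran from -0.30 to -0.12 for coregulators, from -0.27 to 0.15 for repressed genes and from -0.73 to -0.12 for immediate early genes.

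The sign of NR3C1 turned on log2 TPM (-0.034, -0.034 and -0.035 with pseudocounts of 0.5, 1 and 0.1) and without control 3, its range with a library left out being -0.019 to 0.13. HSD11B1 turned on log2 TPM (-0.026, -0.026 and -0.027) and without control 2 (-0.21) or resveratrol 3 (-0.07), with a range up to 0.33. The median of all tested rows on log2 TPM was -0.079, -0.073 and -0.084 with these pseudocounts, beside -0.0075 in edgeR. Both genes lay above it there. KLF9 turned without control 3 (0.12) and resveratrol 1 (0.08), with a lowest value of -0.30, and CEBPD without control 3 (0.49, lowest value -0.49). NR3C2 turned without control 2 (0.0093) and resveratrol 1 (0.041), with a lowest value of -0.20. The cause was not tested. DESeq2 called PER1, PER2, NR4A1 and NR1D1 (adjusted p = 0.0159, 0.00922, 0.00922 and 0.00260), which edgeR did not.

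Chosen after seeing the data was limma on log2(TPM + 0.5) with TPM rescaled without the assembled loci, rows with no Ensembl gene that held 25.5% to 33.9% of all TPM. The median of all its rows was -0.13, beside -0.079 in limma on log2(TPM + 0.5) without the rescaling and -0.0075 in edgeR, and values in it are relative to that shift. It called 1 row and no gene of the set, of which 2 were lower at an unadjusted p under 0.05. NR3C1 was at -0.085 and HSD11B1 at -0.077. Coregulators had 5 lower and a median of -0.35, induced genes 8 lower and 0 higher, and clock genes a median of -0.44. Of all its rows, 782 were lower and 118 higher at that threshold, beside 644 and 329 in edgeR.

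Deviations of same-numbered libraries correlated at 0.157, 0.0741 and 0.200, and those of the other pairs at -0.154 to 0.0121. All 6 of 6 libraries correlated best with their own number. Each same-numbered pair is counted here from both of its libraries. Deviations were taken from the mean of each diet, so the correlations are not independent. Whether the numbers pair the libraries by design is not stated in the labels, and these correlations cannot settle it. With the number as a replicate block the set's median was -0.094, 1 gene of the set was lower at an unadjusted p under 0.05, and 0 rows were called, with 1259 rows at an unadjusted p under 0.05.

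Depth was lowest in control 2, where HSD11B1 had 240 reads. With 3 libraries a group, the 95% intervals of the 9 genes reached from 0.442-fold to 1.69-fold for CEBPD, the widest.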

Other observations

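Of the further genes that glucocorticoid induces, 5 are given here that were chosen after their values were seen, and none of them had an unadjusted p under 0.05 in edgeR. PDK4, the kinase that turns off pyruvate dehydrogenase, averaged 529.6 TPM over the 6 libraries (log2 fold change 0.29, SE 0.27). ANGPTL4, the inhibitor of lipoprotein lipase, averaged 171 TPM (0.19, SE 0.18). LPIN1, a phosphatidate phosphatase, averaged 76.4 TPM (0.04, SE 0.22). KLF15, a transcription factor of amino acid and glucose metabolism, averaged 33.9 TPM (0.15, SE 0.28). CD163, a haemoglobin scavenger receptor that glucocorticoid induces in macrophages, had a log2 fold change of 0.34 (SE 0.20), the same direction as the macrophage genes described above.

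CEBPB, which acts beside CEBPD in early adipocyte differentiation, stood at 100.7 TPM in control 3 and at 46.5 to 71.2 TPM in the other 5 libraries, so control 3 was the highest library for both genes. Its log2 fold change was 0.0061 (SE 0.31). CEBPB was chosen after its value was seen.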
